A study of Mus musculus with 6 samples.

Results

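The genes described here encode the subunits of the proteasome and the proteins that assemble, open or block it. They were taken as every probe whose platform symbol, or its current name, begins with Psm, a letter from a to g and a digit. The rule found 44 probes for 44 genes of the 16390 named genes on the array, 1 probe per gene, and 4 of the genes were found through an older symbol. They comprised 16 subunits of the core particle (7 alpha, 6 constitutive beta and 3 inducible beta), 9 of the base, 8 of the lid, 10 regulators and assembly factors, and Psmc3ip. Psmc3ip encodes a meiotic recombination protein that carries the letters of the family but is no part of the particle, and Psme3ip1 encodes a partner of an activator. The remaining 42 genes are proteasome genes proper. Psma5, Psmb3, Psmb11, Psme2, Psme2b, Psme3 and Psmg4 were not analysed here.

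The proteasome degrades proteins that carry ubiquitin chains. Its barrel-shaped core holds the peptidase sites in an inner pair of beta rings, capped by an alpha ring at each end. A regulatory particle, built of a base with an ATPase ring and a lid that removes ubiquitin, feeds substrates into it, and other activators can take its place. Testis is rich in proteasomes, has an alpha subunit of its own (Psma8), and uses the activator Psme4 when spermatids replace their histones.

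RNA was measured from testis of C57/BL6 mice on 6 arrays. MVH, also called DDX4, is an RNA helicase of germ cells. Cleared testis lysate was precipitated with anti-MVH antibody (2 arrays, MVH 1 and 2) or with normal rabbit IgG (2 arrays, IgG 1 and 2), and RNA of the lysate without any antibody, labelled WCE and called total RNA here, made up the third group (2 arrays). Age, the number of animals and any genotype beyond the strain are not given in the labels, and the protocol takes a pair of testes per lysate. Whether arrays 1 and 2 of a group stem from different animals is not stated, so that p-values reflect only the spread of these samples, possibly a technical one.

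Intensities below are on a linear scale with every array set to a median of 30. Each array listed 22090 to 22965 of 23473 probes. The deposited median was 30 on 5 arrays and 20.8 on IgG 2, which also had the most blank probes, 1383. All 44 members were listed on all 6 arrays. Since probes differ in their response, the intensity of a gene is compared only with its own on another array. Spermatid markers, such as the protamine genes, were bright on every array: the 12 genes of that list summed to between 270310 and 381640. Differences are log2 values with the standard error (SE) of a limma model fitted to all probes and arrays, and a call is a Benjamini-Hochberg adjusted p under 0.05 over all probes tested.

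The comparison of the MVH with the IgG precipitate asked which RNAs were stronger, relative to the rest of the sample, with the antibody than with an unspecific one. Each array was centred on its own median, so the amount of RNA precipitated was not compared. Between the precipitates, 5 of the 6 constitutive beta subunit genes were lower with MVH, by 2.25-fold to 3.38-fold, and so were Psmd2 of the base and Psme3ip1. The alpha subunit gene Psma4 and the inhibitor gene Psmf1 were higher, by 2.80-fold and 4.48-fold. None of the 8 lid genes among the members was called here, though Psmd8 was called higher under 7 of 16 alternatives. In all 2 members were higher and 7 lower of 44, or 4.55% and 15.9%, against 3.82% and 4.15% of the 21574 probes tested. With the values as deposited, without centring, the same 2 were higher and 0 were lower, against 3.25% and 0.561% of all probes. That setting moved the median of all probes from 0.07 to 0.34 and, for Psmb5, the SE from 0.28 to 0.41. The cause of the loss was not tested.

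The calls among members were lost or changed when single arrays were left out, as were those over all probes. Such fits leave 1 array in a group, so only differences are given here. The median difference of all members then ran from -0.41 to 0.01. That of the 6 constitutive beta genes ran from -1.705 to -1.243. When only the 4 arrays compared were fitted, 0 members were higher and 0 lower, as were 0% and 0% of the 21574 probes tested. At an unadjusted p under 0.05 there were 4 higher and 14 lower members in the full fit, 9.09% and 31.8%, against 12.6% and 12.8% of all probes. By size alone, with no test, 2 members had both MVH arrays at least 2-fold over both IgG arrays (4.55%, against 2.54% of all probes) and 4 had them 2-fold under (9.09%, against 2.81%). With no minimum size, both MVH arrays lay above both IgG arrays in 6 members and below in 18, against 29.9% and 23.8% of all probes. Of the 25 members with a mean intensity of at least 250 in total RNA, 7 were lower (28%), against 6.98% of all probes as bright, and 2 were higher (8%), against 7.7%. This level was chosen after the values had been seen.

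**Figure D1:**
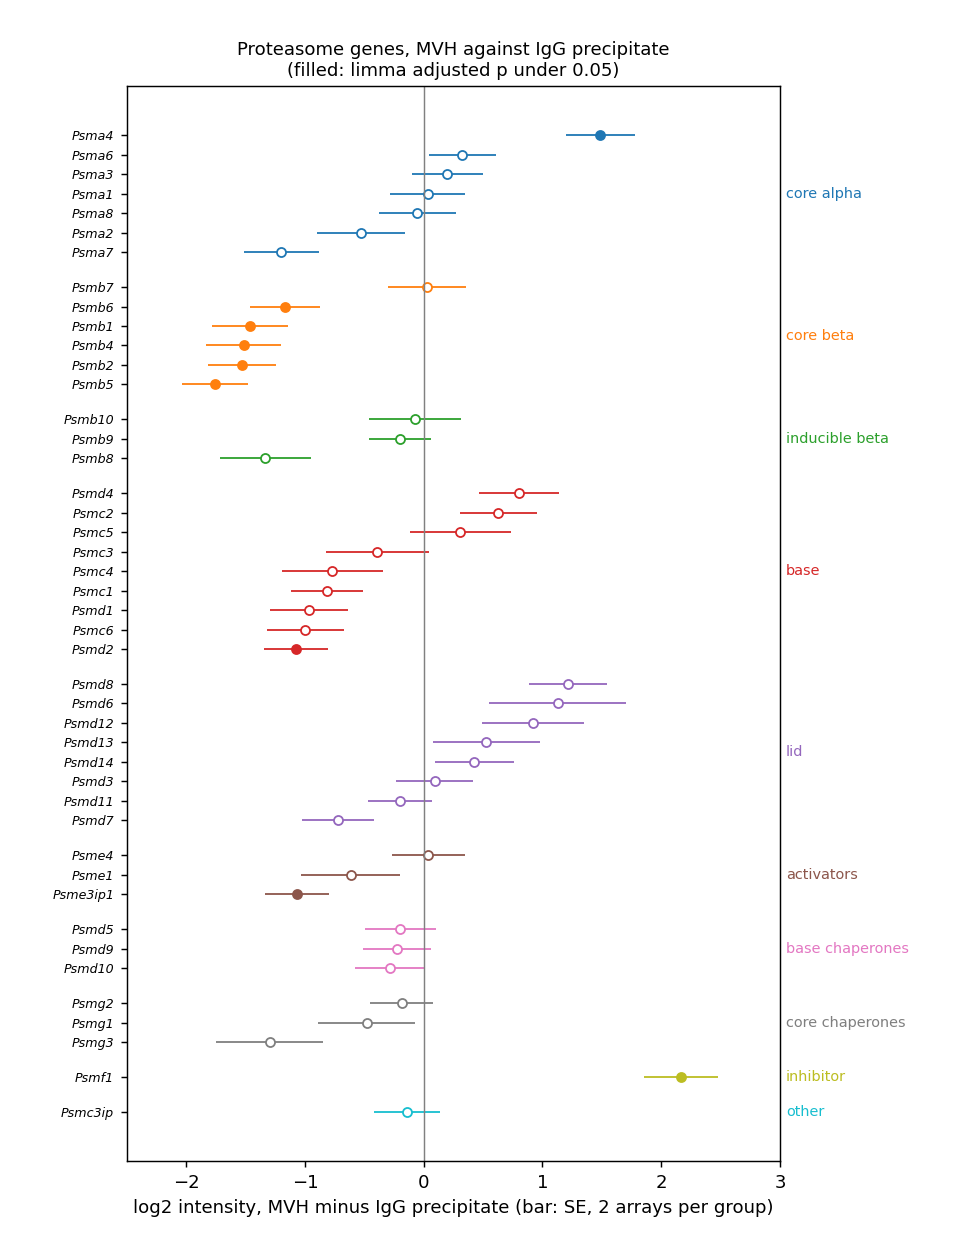
Log2 difference between the MVH and IgG precipitates for each of the 44 members, grouped by role. Points are the fitted difference, bars its SE with 2 arrays per group, and filled points passed the limma threshold. The filled points are Psma4 and Psmf1 on the right and 5 beta subunit genes, Psmd2 and Psme3ip1 on the left.

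Psmf1 encodes the proteasome inhibitor also called PI31, which binds the core particle. Its intensities were 6905 and 5556 in the MVH precipitates, 1386 and 1379 in the IgG precipitates, and 3930 and 6254 in total RNA. The IgG arrays were the low ones, and the MVH arrays overlapped total RNA. The difference between the precipitates was 2.16 ± 0.31 (SE, n = 2 per group, limma adjusted p = 0.0169), and the nearest MVH and IgG arrays were 4.01-fold apart. Over 16 alternatives the difference stayed between 2.01 and 2.43, with an adjusted p from 0.000575 to 0.103. The call was lost without MVH 1 (2.01), MVH 2 (2.32), total RNA 1 or total RNA 2, with the value unchanged in these last cases. It was also lost when only the 4 arrays compared were fitted (2.16, limma adjusted p = 0.0533).

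Against total RNA, Psmf1 differed by 0.32 ± 0.31 in the MVH precipitate (limma adjusted p = 0.889), a value that was -0.014 without total RNA 1 and 0.66 without total RNA 2. In the IgG precipitate it was 3.59-fold below total RNA (-1.84 ± 0.31, limma adjusted p = 0.0542), which missed the threshold. This difference kept its sign under 16 alternatives, from -2.18 to -1.51, and its adjusted p ran from 0.00436 to 0.349. It passed under 6 of the 16, with quantile normalization (0.0493) among them. The nearest IgG and total RNA arrays were 2.84-fold apart, and Psmf1 was the 1 member of 44 to be at least 2-fold lower in both IgG arrays than in total RNA (2.27%, against 0.775% of all probes). Fbxo7, an F-box protein that binds the same inhibitor, differed by 0.28 ± 0.31 between the precipitates (adjusted p = 0.633); it is named after its value was seen.

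**Figure D2:**
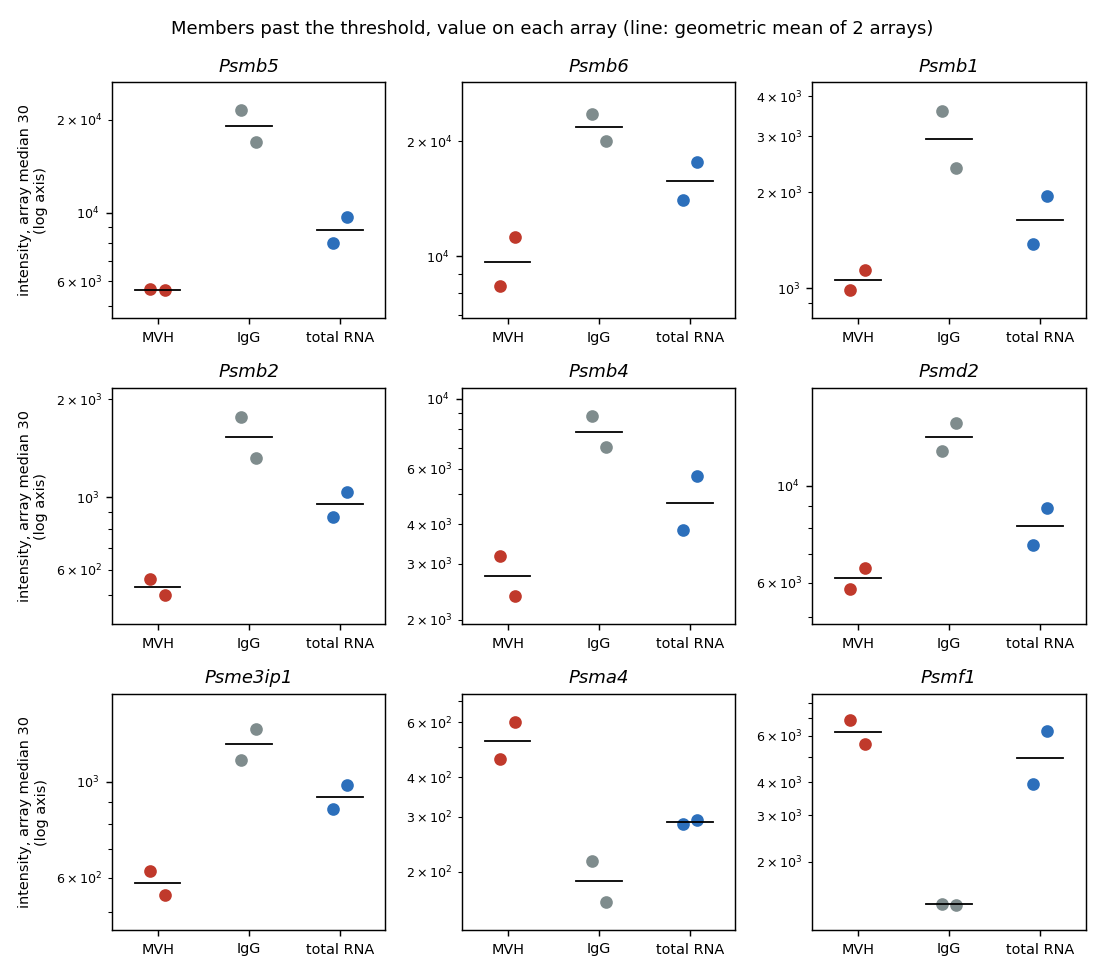
Intensity of the 9 members past the threshold on each of the 6 arrays, on a log axis, with every array scaled to a median of 30. Points are arrays and lines the geometric mean of 2 arrays. In 7 panels the IgG arrays are the highest and the MVH arrays the lowest. Psma4 runs the other way, and for Psmf1 only the IgG arrays stand apart.

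The constitutive beta subunits form the inner rings, and Psmb5, Psmb6 and Psmb7 carry the chymotrypsin-like, caspase-like and trypsin-like sites. Psmb5 had intensities of 5666 and 5613 on the MVH arrays, 21495 and 16942 on the IgG arrays, and 7971 and 9682 for total RNA. The groups did not overlap, with the nearest MVH and IgG arrays 2.99-fold apart. Its difference between the precipitates was -1.76 ± 0.28 (SE, n = 2 per group, limma adjusted p = 0.0173), which ran from -1.93 to -1.495 over 16 alternatives, with an adjusted p from 0.000883 to 0.104. Psmb6 stood at 8342 and 11244 with MVH against 23581 and 20087 on the IgG arrays, with total RNA between them at 14009 and 17625. Its groups did not overlap either, and the difference was -1.17 ± 0.29 (adjusted p = 0.0459). Psmb7, the third of these site-bearing subunits, was at 246 and 338 on the MVH arrays, 360 and 222 on the IgG arrays, and 384 and 350 for total RNA. The precipitates overlapped, with a difference of 0.03 ± 0.33 (adjusted p = 0.969).

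The other constitutive beta subunits have no active site. Psmb1 had intensities of 990 and 1140 on the MVH arrays, 3606 and 2385 on the IgG arrays, and 1373 and 1944 for total RNA, a difference between the precipitates of -1.47 ± 0.32 (limma adjusted p = 0.0319). Psmb2 had 560 and 501 on the MVH arrays, 1765 and 1321 on the IgG arrays, and 873 and 1041 for total RNA (-1.53 ± 0.28, adjusted p = 0.0226). In Psmb4 the values were 3184 and 2378 on the MVH arrays, 8778 and 7027 on the IgG arrays, and 3837 and 5671 for total RNA (-1.51 ± 0.32, adjusted p = 0.0298). All 3 lay in the same order, with IgG above total RNA and total RNA above MVH on every array. The median difference of the 6 constitutive beta genes was -1.49, against 0.07 over all probes, and ran from -1.705 to -1.225 over 16 alternatives, the last with no centring. RefSeq names pseudogenes of Psmb5, Psmb6 and Psmb7, and how far their transcripts reach these probes is unknown.

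The same order, IgG above total RNA above MVH, with no overlap in either step, was also counted over all members and was seen in 9 of 44 members (20.5%), against 4.75% of the 21241 probes listed on all arrays. These 9 were the 5 beta genes just described, Psma7, Psmb8, Psmd2 and Psme3ip1. The order is that of the called beta genes, which the count includes, and the probes compared were of any brightness. The opposite order was seen in 1 member, Psma4 (2.27%, against 5.76%). Psmd2, a scaffold of the base, stood at 5804 and 6497 on the MVH arrays, 12016 and 13935 on the IgG arrays, and 7343 and 8882 for total RNA, with a difference between the precipitates of -1.08 ± 0.27 (limma adjusted p = 0.0472). Psme3ip1 was at 622 and 547, 1126 and 1325, and 866 and 981 in the same groups (-1.07 ± 0.27, adjusted p = 0.047). Both values lie close to the threshold. Psmd2 was called under 8 of 16 alternatives and Psme3ip1 under 7, with centring on the 75th percentile among those where Psme3ip1 was not called.

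Among markers of other testis cells, the Leydig list moved as a whole with these results, and the other lists were mixed. Of the 5 Leydig cell markers with a probe, 4 were lower with MVH than with IgG. Their summed intensity was 490 to 509 with MVH, 1884 to 2997 with IgG and 658 to 1129 in total RNA, which is the order of the 5 beta genes. The 8 peritubular and vascular markers summed to 375 to 574, 1480 to 3182 and 440 to 534 in the same groups, with 2 of 6 tested lower. Sertoli cell markers summed to 4929 to 6445, 8057 to 10705 and 6774 to 8239, and spermatogonial markers to 1661 to 1690, 2629 to 3464 and 2136 to 2542. By gene, the difference between the precipitates was positive in 2 and negative in 4 of the 6 peritubular and vascular markers tested. It was positive in 4 and negative in 4 Sertoli markers, with 1 called lower. Of the 6 spermatogonial markers tested, 3 were positive and 3 negative, with 1 called higher and 1 lower. The Leydig and Sertoli lists had no blank marker, and 2 peritubular and vascular markers and 1 spermatogonial marker were blank on at least 1 array. Spermatocyte markers summed to 42873 to 52257 with MVH, 41989 to 42467 with IgG and 34822 to 46293 in total RNA. By gene 5 were positive and 3 negative, with 1 called higher and 1 lower. Spermatid markers summed to 292650 to 381640, 270310 to 341870 and 320700 to 345810 in the same groups. Of these 12 markers 9 were positive and 3 negative, with 1 called higher. The part of these cells in the proteasome values was not tested. In fractions of lysate, cell number, RNA per cell, and recovery or unspecific binding of RNA in a precipitate cannot be told apart.

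**Figure D3:**
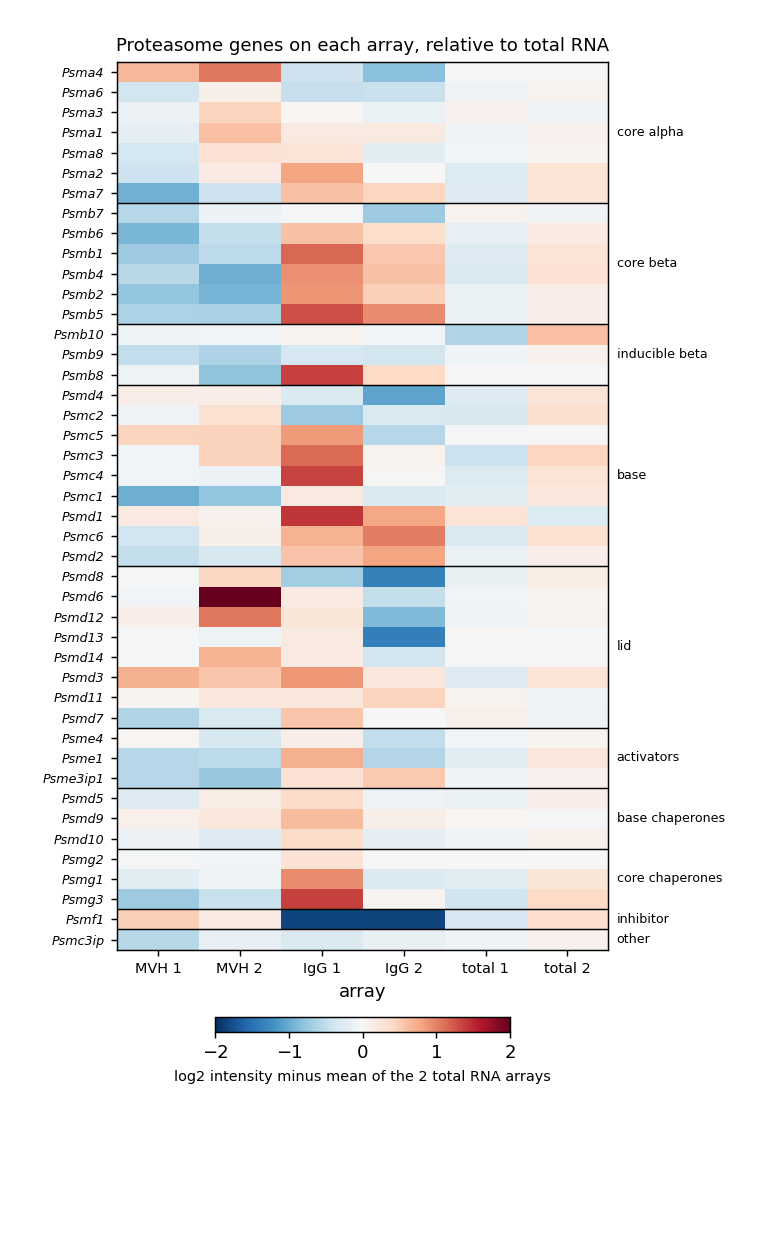
Log2 intensity of the 44 members on each array, minus the mean of both total RNA arrays, in colour from -2 (blue) to 2 (red). Rows are ordered by role and, within a role, by the difference between the precipitates. The 5 lower beta genes are blue with MVH and red with IgG, Psmf1 is blue with IgG alone, and the red cell of Psmd6 is on MVH 2 alone.

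The alpha subunits form the outer rings and the gate. Psma4 had intensities of 457 and 600 on the MVH arrays, 217 and 161 on the IgG arrays, and 284 and 292 for total RNA. The groups did not overlap, and the difference between the precipitates was 1.49 ± 0.29 (SE, n = 2 per group, limma adjusted p = 0.0252). The call was lost without MVH 1, MVH 2, IgG 2, total RNA 1 or total RNA 2, where the difference was 1.27 to 1.68. It was also lost when only the 4 arrays compared were fitted (1.49, limma adjusted p = 0.0637). Psma7 lay at 468 and 690 on the MVH arrays, 1378 and 1236 on the IgG arrays, and 770 and 1091 for total RNA, and its difference of -1.20 ± 0.31 missed the threshold (adjusted p = 0.0522), which it passed under 7 of 16 alternatives. Psma8, its relative found in the testis, was at 82.4 and 128 on the MVH arrays, 127 and 89.1 on the IgG arrays, and 101 and 109 for total RNA. These overlapped (-0.05 ± 0.32, adjusted p = 0.942). The remaining alpha genes, Psma1, Psma2, Psma3 and Psma6, differed by -0.52 to 0.33. Over the 7 alpha genes the median was 0.03, which turned to -0.36 without MVH 2 and was 0.42 without MVH 1.

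The inducible beta subunits Psmb8, Psmb9 and Psmb10 replace Psmb5, Psmb6 and Psmb7 in immune cells and after interferon. All 3 were dim. Psmb8 had intensities of 34.0 and 21.0 on the MVH arrays, 94.3 and 48.2 on the IgG arrays, and 36.2 and 36.8 for total RNA, and differed by -1.33 ± 0.38 (limma adjusted p = 0.0669), with a call under 6 of 16 alternatives. Psmb9 differed by -0.20 ± 0.26 and Psmb10 by -0.08 ± 0.39, neither past the threshold. The constitutive partners were at -1.76 (Psmb5), -1.17 (Psmb6) and 0.03 (Psmb7), and the difference within a pair was not tested. The 9 macrophage, lymphoid and blood markers with a probe summed to 553 and 574 on the MVH arrays, 418 and 532 on the IgG arrays, and 778 and 1037 for total RNA. Of these markers 2 were blank on at least 1 array, and the 7 listed throughout summed to 537 and 559, 406 and 532, and 759 and 1024 in the same groups. Both sums were lowest with IgG. By gene, the difference between the precipitates was positive for 5 and negative for 2 of the 7 markers tested, and 1 was called lower. The part of these cells in the Psmb8 values was not tested.

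In the base, the ATPase ring genes Psmc1 to Psmc6 and the scaffold genes were uneven. Of the 9 base genes 1 was lower, Psmd2, and 0 higher, with a median difference of -0.77 between the precipitates that shrank to -0.11 without IgG 1. Adrm1, a base subunit outside the naming rule, was called higher and is given with the pathway list. Psmc6 (-0.996 ± 0.33, limma adjusted p = 0.0956) and the scaffold gene Psmd1 (-0.97 ± 0.33, adjusted p = 0.104) missed the threshold, though their precipitates did not overlap. Psmd1 was at 360 and 338 on the MVH arrays, 852 and 545 on the IgG arrays, and 382 and 263 for total RNA, so the IgG arrays alone stood apart. The ubiquitin receptor gene Psmd4 had the largest positive value of the base (0.80 ± 0.34, adjusted p = 0.18), with 770 and 767 against 577 and 337. Psmc4, the dimmest base probe, had 46.6 and 44.6 on the MVH arrays, 123 and 49.2 on the IgG arrays, and 40.0 and 58.4 for total RNA. Its difference of -0.77 ± 0.43 rests on the single high array IgG 1. Psmc2 reached 41964 in total RNA, where the highest deposited intensities of the arrays were 67580 to 83665, and differed by 0.63 ± 0.33.

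The lid holds Psmd14, the enzyme that removes ubiquitin chains. Of the 8 lid genes 0 were called by limma in either direction, and 6 had a positive difference between the precipitates. Psmd8 came closest, with intensities of 4947 and 6727 on the MVH arrays, 3110 and 1984 on the IgG arrays, and 4542 and 5607 for total RNA (1.22 ± 0.33, limma adjusted p = 0.0552). The IgG arrays were the low ones, as for Psmf1. It was called higher with quantile normalization, 75th-percentile centring, an offset, a variance trend, without the dimmest probes, with probes listed on all 6 arrays, and without IgG 1. Psmd6 was at 573 on MVH 2 and between 103 and 161 on the other 5 arrays, so its difference of 1.13 ± 0.58 rests on 1 array (adjusted p = 0.262). Psmd7 had the lowest value, -0.72 ± 0.30 (adjusted p = 0.176), and Psmd11, Psmd12, Psmd13, Psmd3 and Psmd14 lay between -0.20 and 0.92. The lid median of 0.48 was 0.04 without IgG 2 and 1.00 without IgG 1. Sem1, a lid subunit outside the naming rule, was called lower and is given with the pathway list.

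Among regulators, Psme4, the activator of spermatids that opens the core without ATP, stood at 56.1 and 43.7 on the MVH arrays, 59.7 and 38.9 on the IgG arrays, and 52.8 and 56.6 for total RNA. Its groups overlapped throughout (0.04 ± 0.31, limma adjusted p = 0.957). Psme1, part of the interferon-inducible activator, differed by -0.61 ± 0.42. The chaperones of the base, Psmd5, Psmd9 and Psmd10, differed by -0.28 to -0.20. Of the chaperones that build the core, Psmg3 had the largest difference, with 40.9 and 49.3 on the MVH arrays, 175 and 69.8 on the IgG arrays, and 51.2 and 88.9 for total RNA (-1.30 ± 0.45, adjusted p = 0.114). Psmg1 differed by -0.48 and Psmg2 by -0.18. Psmc3ip, outside the particle, differed by -0.14 ± 0.28.

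Neither precipitate gave a call among the members when set against total RNA. These comparisons share the total RNA arrays with each other, and each shares a precipitate with the comparison above. With MVH, limma called 0 of 44 members higher and 0 lower, against 0.00459% and 0.00918% of the 21793 probes tested. At an unadjusted p under 0.05 there were 1 higher and 6 lower members, 2.27% and 13.6%, against 4.53% and 4.4% of all probes. All 6 constitutive beta genes had negative values, from -0.85 for Psmb2 to -0.35 for Psmb7, and all 6 lay below total RNA on both arrays. Of all 44 members 18 lay below total RNA and 5 above, against 21.6% and 18.7% of all probes. With IgG, limma called 0 higher and 0 lower, against 0.00934% and 0% of 21413 probes. The unadjusted counts were 8 higher and 2 lower, 18.2% and 4.55%, against 9.35% and 8.86% of all probes. There 5 of the 6 beta genes had positive values, from 0.47 for Psmb6 to 1.12 for Psmb5 (limma adjusted p = 0.0937 for Psmb5), and lay above total RNA on both arrays, as did 20% of all probes. Psmb7 was at -0.37. Over all 44 members 14 lay above total RNA with IgG and 7 below, against 20% and 29.6% of all probes.

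The wider ubiquitin and proteasome pathway was read from a list of 41 genes, of which 32 had a named probe. In the comparison of the precipitates 2 were higher and 1 lower (6.25% and 3.12%), close to the shares over all probes. Adrm1, a ubiquitin receptor of the base, had intensities of 333 and 193 on the MVH arrays, 122 and 56.7 on the IgG arrays, and 184 and 177 for total RNA (1.61 ± 0.41, limma adjusted p = 0.0492). Usp14, a deubiquitinase that docks on the base, was dim, at 25.7 and 64.0, 10.7 and 12.5, and 15.5 and 16.4 in the same groups (1.81 ± 0.41, adjusted p = 0.0351). Sem1, a small lid subunit, was lower, at 3881 and 4336 against 10355 and 8154, with 5222 and 5276 in total RNA (-1.16 ± 0.27, adjusted p = 0.0378). Sem1 thus lay in the order of the called beta genes, while Adrm1 and Usp14 lay in the opposite order. The list's median was 0.29, with 21 positive and 11 negative values, against -0.20 for the 44 members, a value that turned to 0.06 with no centring and 0.01 without IgG 1. Against total RNA 0 of the 32 were called with either precipitate.

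Across the 44 members, the difference between the precipitates had a Spearman correlation of -0.092 with the brightness of the probe in total RNA and of 0.27 with the genomic span of the gene in RefSeq (Pearson -0.0427 and 0.236). These are descriptions over genes that share the same 6 arrays. Proteasome genes are known targets of the transcription factor Nfe2l1, which binds the antioxidant response element, so the promoters were searched for its core, TGACNNNGC, and for the CCAAT box, on both strands of the 250 bases before the start. Of the 44 members 36 had a promoter in the RefSeq table (GRCm38.p6), in 39 windows. The element was in 5 windows (12.8%), against 10.2% of the 32851 windows of all genes, and the CCAAT box in 13 (33.3%), against 33.8%. The windows with the element were those of Psmb5, Psmb6, Psmc6, Psmd9 and Psmd12. Psmb4 and Psmd2, lower as well, held neither motif, nor did Psma4 and Psmf1, which were higher. Psme3ip1 held the CCAAT box alone, and the table had no window for Psmb1 and Psmb2. The promoters of Psmb5, Psmb6, Psmb4 and Psmf1 are given to show lower genes with and without the element and a higher one without it, 5′ to 3′, with the element in capitals.
Psmb5, chr14:54617996-54618245, minus strand: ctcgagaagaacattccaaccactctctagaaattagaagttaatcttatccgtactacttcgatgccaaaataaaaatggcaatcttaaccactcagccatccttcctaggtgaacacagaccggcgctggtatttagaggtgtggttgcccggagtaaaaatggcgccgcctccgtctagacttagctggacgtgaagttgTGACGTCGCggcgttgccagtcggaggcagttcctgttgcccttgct
Psmb6, chr11:70525107-70525356, plus strand: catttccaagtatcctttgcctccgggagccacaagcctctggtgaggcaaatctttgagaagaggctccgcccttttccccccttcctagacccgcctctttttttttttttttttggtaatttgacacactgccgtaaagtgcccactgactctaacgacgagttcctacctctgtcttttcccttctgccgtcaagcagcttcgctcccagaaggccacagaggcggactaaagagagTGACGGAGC
Psmb4, chr3:94886959-94887208, minus strand: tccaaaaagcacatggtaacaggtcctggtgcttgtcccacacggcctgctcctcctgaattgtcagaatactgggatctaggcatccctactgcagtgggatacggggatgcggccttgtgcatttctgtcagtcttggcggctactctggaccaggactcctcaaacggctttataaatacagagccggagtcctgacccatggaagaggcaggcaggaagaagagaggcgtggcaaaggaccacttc
Psmf1, chr2:151741311-151741560, minus strand: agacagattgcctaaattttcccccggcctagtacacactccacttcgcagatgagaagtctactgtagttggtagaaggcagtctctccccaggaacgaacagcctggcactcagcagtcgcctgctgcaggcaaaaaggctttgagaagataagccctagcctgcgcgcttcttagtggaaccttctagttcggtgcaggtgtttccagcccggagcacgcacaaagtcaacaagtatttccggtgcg
The element began 47 bases before the start in Psmb5 and 9 bases before it in Psmb6. These matches are descriptions of letters, since the arrays measured RNA in precipitates and not transcription.

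**Figure D4:**
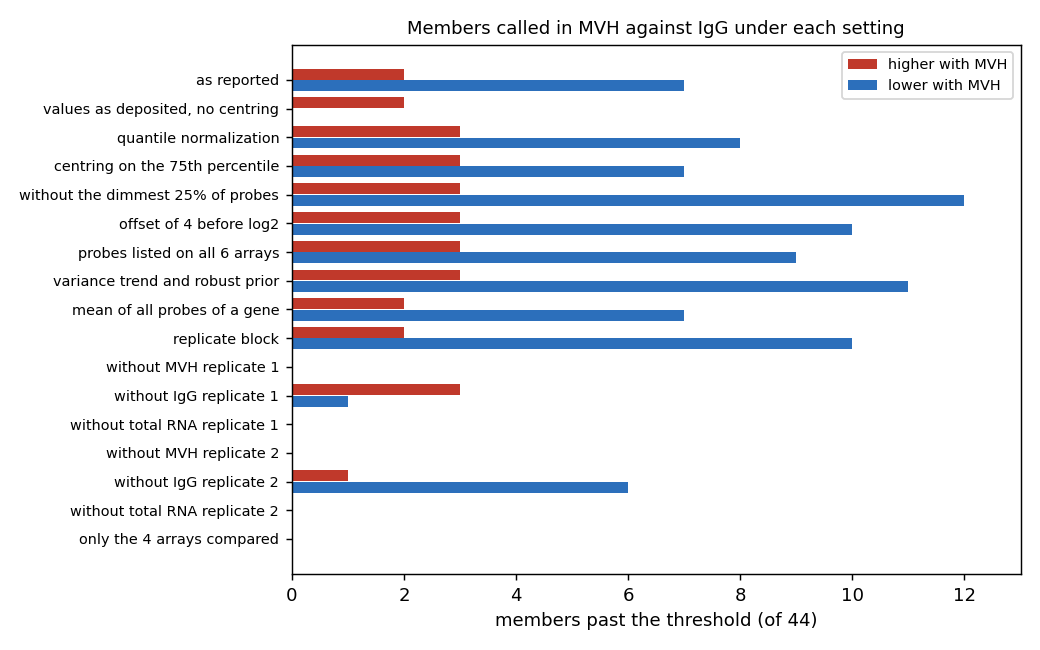
Number of the 44 members called higher (red) or lower (blue) with MVH than with IgG, for the fit as reported and 16 alternatives. The counts run from 0 to 3 higher and from 0 to 12 lower, and both are 0 without either MVH array, without either total RNA array and when only the 4 arrays compared were fitted.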

How the data were processed

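Aminoallyl aRNA was made from each sample and labelled with Cy5, 1 sample per array, per the labels' protocols. Part of the same protocols describes human tumour tissue and miRNA labelling, and that part was not used here. The authors deposited a linear intensity per probe; how it was scanned, background-corrected and scaled, and when a cell was left blank, is not given in the sources used here. Symbols came from the platform annotation (16631 of 23473 probes) and were updated through RefSeq synonyms (3947 updated, 62 unmatched). Intensities were converted to log2 and centred on each array's median. limma 3.58.1 (R 4.3.3) was fitted to all 6 arrays (lmFit, eBayes; 3 residual and 5.77 prior degrees of freedom; median SE 0.307), and a probe was tested where all 4 arrays of a contrast were listed. The number of arrays limits the precision. Tested on simulated data for MVH against IgG (21241 probes), the fit recovered 0% of 67 probes changed 2-fold, 49.3% of 67 changed 4-fold and 83.3% of 66 changed 8-fold, with 1 false call. Far fewer probes were changed in the simulation than the 824 called higher and 895 called lower in the data. Its noise was also independent between arrays. These rates therefore need not hold for the data.

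The members, lists and tests were chosen with earlier results of these data known. Named are Psmf1, members called in any contrast, extremes of each role, constitutive and inducible pairs, and called genes of the pathway list. The alternatives were other centring, filters, offset, variance prior, arrays fitted, probe averaging, a replicate block and leaving out each array. Plots were drawn with matplotlib 3.10.9.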

Additional observations from a re-analysis of the deposited data

How the results depend on the processing

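For MVH against IgG, the 2 members called higher and 7 called lower became 0 lower with no centring, 12 lower without the dimmest 25% of probes, 11 lower with a variance trend, and 0 and 0 with only the 4 arrays compared. Leaving out 1 array gave 0 to 3 higher and 0 to 6 lower. The 7 lower genes were all among the 12 and the 11. The cause of the loss was not tested, except that the total RNA arrays enter this difference only through the shared spread. With each offset, filter, prior or scaling, the 9 called differences kept their sign. For IgG against total RNA the counts were 0 and 0 in the fit as reported. Without the dimmest probes 1 was higher and 1 lower, against 4.4% and 2.34% of all probes. With an offset they were 1 and 1, against 3.11% and 1.97%, and with a variance trend 2 and 1, against 3.73% and 2.12%. With quantile normalization, 75th-percentile centring or probes listed on all 6 arrays 1 was lower. The shares of all probes called lower there were 0.135%, 0.285% and 0.588%. That lower gene was Psmf1 each time. For MVH against total RNA the counts stayed 0 under all 16. Psmf1 there ran from -0.014 (without total RNA 1) to 0.66 when 1 array was left out.

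With the replicate block the counts for MVH against IgG were 2 higher and 10 lower, against 5.1% and 5.39% of all probes. Arrays of the same number share only a number in the labels, and their deviations correlated at 0.157 (MVH and IgG), 0.156 (MVH and total RNA) and 0.101 (IgG and total RNA) over 21241 probes. Dim probes such as Psmb9, Psmb10 and Usp14 lie near or under the array median, and the background of the arrays is unknown.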
